A study of Mus musculus with 10 samples.

Results

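The genes described here encode the succinate dehydrogenase (complex II), the cytochrome bc1 complex (complex III) and the ATP synthase of mitochondria, in the interscapular brown adipose tissue (iBAT) of Axl KO and wild-type (WT) mice on a high-fat diet (HFD). They were taken by symbol from the GENCODE M21 annotation of the mouse genome build GRCm38: protein-coding genes that begin with Atp5, with Uqcr or with Sdh followed by a, b, c or d, together with Uqcc1, Uqcc2, Cyc1 and Cycs, if they averaged more than 1 CPM (counts scaled to libraries of 1000000 reads) over the 10 mice. There were 37 such genes among 13739 genes above that level. They comprised 8 genes of complex II (4 subunits and the assembly factors Sdhaf1, Sdhaf2, Sdhaf3 and Sdhaf4), 11 of complex III (9 subunits and the assembly factors Uqcc1 and Uqcc2), the electron carrier Cycs and 17 of the ATP synthase. The symbol rule matched 38 identifiers of the annotation, of which 37 had an entry in the count tables, and all 37 passed the filter. The wording of the rule leaves room for keeping or dropping the Sdhaf genes, so counts without them are given as well.

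RNA was sequenced from whole iBAT of 5 Axl KO and 5 WT male mice, with 1 library per mouse, after 24 weeks of HFD that began at 6 to 8 weeks of age according to the sample records. Axl encodes a receptor tyrosine kinase. The Axl KO mice carried a constitutive, whole-body gene trap (the Axl tm1a allele, a lacZ and neomycin resistance cassette between exons of Axl) on a C57BL/6 background, and the WT mice were littermates without it. Both groups therefore shared diet, sex and strain and differed in the Axl allele, and the trap was present in every cell type of the Axl KO mice and not in brown adipocytes alone.

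Complex II oxidizes succinate in the citric acid cycle and passes the electrons to ubiquinone. Complex III moves electrons from ubiquinol to cytochrome c while pumping protons out of the matrix, and the ATP synthase lets protons return through a ring of c subunits in the membrane, which turns the F1 head where ATP is made. Brown adipocytes hold many mitochondria with a dense respiratory chain, but protons return largely through uncoupling protein 1, and their ATP synthase is scarce relative to the respiratory chain; in rodent brown fat the c subunit gene Atp5g1 is known as the subunit whose low expression goes with this scarcity.

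Total counts ranged from 5431014 to 9580215 per mouse, and the 37 genes together took 2.91% to 3.13% of them. Axl was at 1.57 ± 0.646 CPM in Axl KO and 43.1 ± 5.86 CPM in WT mice (SD, n = 5 each), without overlap, and was the only gene with an adjusted p under 0.05 (edgeR quasi-likelihood test with Benjamini-Hochberg adjustment, log2 fold change -4.77, SE 0.20, adjusted p = 1.10e-07). That call was 0.00728% of the genes tested, while 8.4% of them had an unadjusted p under 0.05. Markers of brown adipocytes were high in every mouse, with summed levels of 8826 to 12112 CPM in Axl KO and 7003 to 9171 CPM in WT mice. Skeletal muscle markers ranged from 93.8 to 4239 CPM in Axl KO and from 1028 to 4840 CPM in WT mice, with Axl KO replicates 1 and 2 far below the other 8 mice. In whole tissue, fewer cells of a type and less RNA per cell cannot be told apart.

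None of the 37 genes was called as differentially expressed in Axl KO iBAT. The lowest adjusted p among them was 0.571 (edgeR quasi-likelihood test, Benjamini-Hochberg over 13739 genes), and DESeq2 called none either, with 9 genes called in all (0.0655%). At an unadjusted p under 0.05 there were 7 of the 37, all higher in Axl KO, against 4.54% of all tested genes that were higher at that level. None was lower, against 3.86% of all tested genes. DESeq2 gave 6 of the 37 at an unadjusted p under 0.05, all higher, against 3.7% of all genes. The sign of the fold change was positive for 28 of the 37, against 49.8% of all tested genes, and their median log2 fold change was 0.069 (4.91% higher) against -0.00059 for all tested genes. The SD between the 10 mice of the median level of these genes, 0.066 on the log2 scale, was close to that difference in size. This SD is over both genotypes together, so it includes the genotype difference. It describes the spread of single mice and is not the error of a difference between group means. Without the 4 Sdhaf genes, 6 of 33 had an unadjusted p under 0.05 and the median log2 fold change was 0.046.

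**Figure D1:**
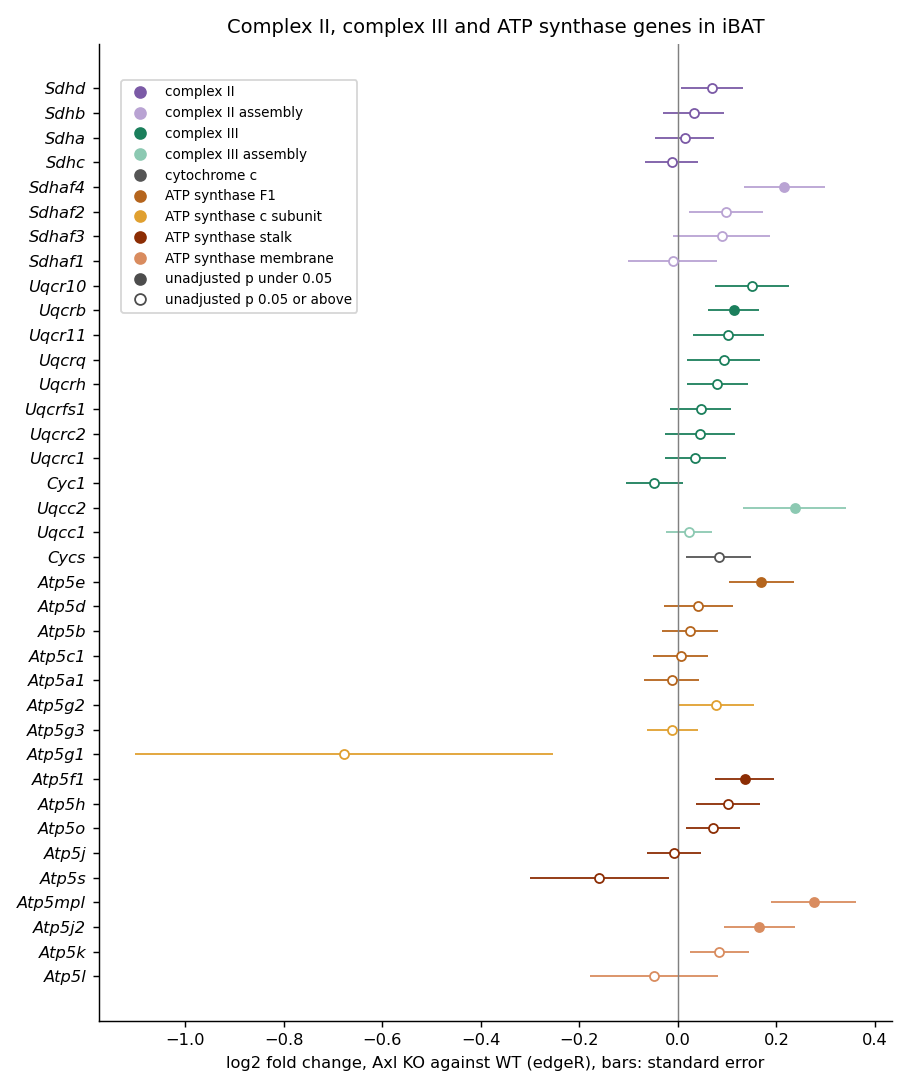
Log2 fold change of Axl KO against WT from edgeR (horizontal axis) for each of the 37 genes (rows, grouped by complex), with bars for the standard error and filled points for an unadjusted p under 0.05. Most points lie between -0.05 and 0.28 and right of 0, whereas Atp5g1 stands apart at -0.68 with the widest error.

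The 4 subunits of complex II were at closely similar levels in both groups. Sdha, the flavoprotein that oxidizes succinate, was at 2978, 3165, 2991, 3373 and 3278 CPM in the 5 Axl KO mice and at 3089, 3296, 2956, 3219 and 3071 CPM in the 5 WT mice, with a log2 fold change of 0.014 (SE 0.060). Sdhb, the iron-sulfur subunit, was at 967, 972, 873, 1029 and 1050 CPM in Axl KO and at 936, 1006, 919, 965 and 958 CPM in WT mice. In both genes the groups overlapped over most of their range, and the lowest and the highest values of Sdhb both came from Axl KO mice.

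The membrane anchors, which bind ubiquinone and heme, were alike in this respect. Sdhc was at 536, 504, 472, 531 and 513 CPM in Axl KO and at 518, 536, 505, 509 and 511 CPM in WT mice. Sdhd was at 789, 733, 674, 768 and 793 CPM in Axl KO and at 702, 767, 713, 716 and 682 CPM in WT mice. The log2 fold changes were 0.032 for Sdhb, -0.013 for Sdhc and 0.069 for Sdhd, each with a standard error between 0.054 and 0.062 and an adjusted p of at least 0.770 by edgeR.

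Among the assembly factors of complex II, Sdhaf4 had the largest difference. It helps Sdha, once it carries its flavin, to join Sdhb. Sdhaf4 (chr1:23995939-24005656, minus strand, GRCm38) was at 23.9, 22.4, 21.1, 22.1 and 24.5 CPM in Axl KO and at 20.2, 22.1, 19.7, 19.1 and 16.7 CPM in WT mice. All Axl KO values were above the WT mean and 4 of 5 above the highest WT value, and the log2 fold change was 0.22 (SE 0.083, unadjusted p = 0.0220, adjusted p = 0.571 by edgeR). WT replicate 5 had the lowest value, and without it the log2 fold change was 0.16. Sdhaf2, which attaches the flavin to Sdha, and Sdhaf1 and Sdhaf3, which serve the iron-sulfur clusters of Sdhb, had log2 fold changes of 0.097, -0.011 and 0.089. With skeletal muscle markers as a covariate, the sign turned for Sdhaf1 (0.056) and Sdhaf3 (-0.034). Sdhaf1 is uncertain, since 69.0% of the 50-base words of its mRNA also lie in the opposite-strand gene E130208F15Rik, and the strand setting of the counting is not given in the sources used here.

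Of the 9 complex III subunits, 8 had a positive fold change and 1 a negative fold change, with a median of 0.080 on the log2 scale. The core proteins Uqcrc1 and Uqcrc2, which form the large matrix-facing part of the complex, differed little. Uqcrc1 was at 1529, 1607, 1418, 1703 and 1637 CPM in Axl KO and at 1513, 1604, 1471, 1565 and 1550 CPM in WT mice (log2 fold change 0.035, SE 0.062). Uqcrc2 was at 1581, 1408, 1321, 1515 and 1669 CPM in Axl KO and at 1401, 1528, 1385, 1509 and 1446 CPM in WT mice (log2 fold change 0.044, SE 0.071). For both, the Axl KO values spread below and above the whole WT range. In Uqcrc2, 24.8% of the 50-base words also lie in the opposite-strand gene Pdzd9.

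The redox subunits of complex III and its electron acceptor gave the same picture. Uqcrfs1, the Rieske iron-sulfur protein, was at 900, 810, 777, 879 and 914 CPM in Axl KO and at 775, 855, 824, 842 and 851 CPM in WT mice. Cyc1, the heme protein that reduces cytochrome c, was at 821, 799, 733, 849 and 807 CPM in Axl KO and at 815, 879, 823, 808 and 820 CPM in WT mice. Cycs, the somatic cytochrome c that carries electrons on to complex IV, was at 465, 432, 410, 441 and 476 CPM in Axl KO and at 435, 458, 416, 413 and 378 CPM in WT mice. The groups overlapped for all 3 genes, with log2 fold changes of 0.046 (SE 0.063), -0.048 (SE 0.057) and 0.082 (SE 0.066), and Cyc1 was the complex III subunit with a negative sign. The count of Cycs depends on how shared reads were treated, since 28.5% of its 50-base words also occur in other annotated genes.

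The small supernumerary subunits of complex III lay further from 0. Uqcrb, which sits beside cytochrome b (chr13:66900617-66905378, minus strand), was at 516, 518, 510, 500.0 and 546 CPM in Axl KO and at 499, 487, 466, 480 and 462 CPM in WT mice. It was the only one of the 37 genes whose groups did not overlap, against 0.735% of all tested genes without overlap in this direction, and none was without overlap in the other direction (0.619%). The gap between the lowest Axl KO value and the highest WT value was under 1 CPM. Its log2 fold change was 0.11 (SE 0.052, unadjusted p = 0.0485, adjusted p = 0.588 by edgeR). The two-sided exact permutation test gave 0.00794, the smallest p that 5 against 5 mice allow. Any gene without overlap gets this value, so it restates the lack of overlap. Of the 50-base words of the Uqcrb mRNA, 43.4% also occur in other annotated genes, so its count depends on how shared reads were treated.

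Uqcr10 was at 417, 399, 330, 408 and 401 CPM in Axl KO and at 373, 362, 353, 361 and 313 CPM in WT mice (log2 fold change 0.15, SE 0.075, unadjusted p = 0.0656, adjusted p = 0.601 by edgeR). Axl KO replicate 3 alone lay inside the WT range, while the other 4 Axl KO mice were above it. Uqcr11, Uqcrq and Uqcrh, the last known as the hinge protein, had log2 fold changes of 0.10, 0.092 and 0.080, with 4 of 5 Axl KO mice above the WT mean in each. The assembly factor Uqcc2, which with Uqcc1 supports the synthesis and insertion of cytochrome b, was at 53.1, 51.3, 53.0, 57.5 and 71.5 CPM in Axl KO and at 48.1, 50.04, 39.3, 51.4 and 53.9 CPM in WT mice. Its log2 fold change of 0.24 (SE 0.10, unadjusted p = 0.0413, adjusted p = 0.579 by edgeR) rested in part on the high value of Axl KO replicate 5, without which it was 0.15. Uqcc1 had a narrow range, at 222 to 231 CPM in Axl KO and 220 to 229 CPM in WT mice, with a log2 fold change of 0.022.

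**Figure D2:**
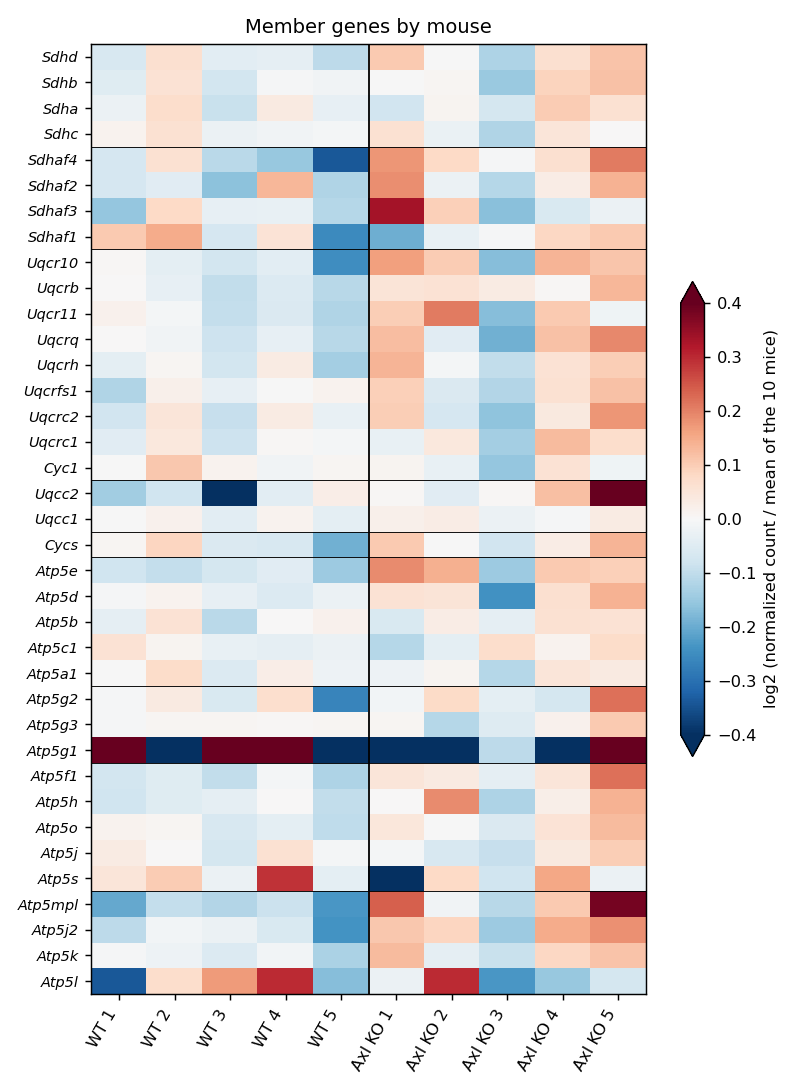
Each cell is the log2 of a gene's normalized count in 1 mouse over its mean in the 10 mice (colour, cut at -0.4 and 0.4), with genes in rows by complex and mice in columns, WT left and Axl KO right of the vertical line. Axl KO 3 is blue for most genes and Axl KO 5 red, and Atp5g1 runs past the colour range in both groups.

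The F1 head of the ATP synthase was at closely similar levels in both groups. Atp5b, the catalytic beta subunit, had the highest level of the 37 genes, at 7898, 8416, 8042, 8596 and 8581 CPM in Axl KO and at 8029, 8579, 7641, 8239 and 8341 CPM in WT mice (log2 fold change 0.025, SE 0.057). Atp5a1, the alpha subunit, was at 4389, 4481, 4109, 4602 and 4564 CPM in Axl KO and at 4445, 4683, 4286, 4533 and 4390 CPM in WT mice (log2 fold change -0.013, SE 0.056). Atp5c1, the gamma subunit that turns inside the head, had a log2 fold change of 0.0058 and Atp5d, the delta subunit, of 0.041. The coefficient of variation between mice was 3.85% in Axl KO and 4.33% in WT mice for Atp5b, and 9.66% and 1.79% for Atp5d, which was lowest in Axl KO replicate 3. The small differences of Sdha, Sdhc, Atp5a1, Atp5c1, Atp5g3, Atp5j, Atp5l and Sdhaf1 took either sign as 1 mouse or another was omitted.

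Atp5e, the epsilon subunit at the foot of the rotor (chr2:174461072-174464105, minus strand), lay apart from the rest of the head. It was at 386, 374, 306, 365 and 362 CPM in Axl KO and at 321, 317, 323, 329 and 306 CPM in WT mice, with a log2 fold change of 0.17 (SE 0.066, unadjusted p = 0.0243, adjusted p = 0.571 by edgeR). As for Uqcr10, 4 Axl KO mice were above every WT mouse and Axl KO replicate 3 was not. In the stalk that holds the head still, Atp5f1 (subunit b) was at 701, 696, 662, 701 and 790 CPM in Axl KO and at 645, 656, 634, 675 and 622 CPM in WT mice (log2 fold change 0.14, SE 0.060, unadjusted p = 0.0425, adjusted p = 0.581 by edgeR). Of its 50-base words, 38.7% occur in other annotated genes.

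The other genes grouped here with the stalk were not at an unadjusted p under 0.05. Atp5h (subunit d) was at 458, 521, 420, 465 and 504 CPM in Axl KO and at 433, 442, 446, 458 and 427 CPM in WT mice (log2 fold change 0.10, SE 0.065, unadjusted p = 0.140, adjusted p = 0.669 by edgeR). Atp5o, the oligomycin sensitivity conferral protein, had a log2 fold change of 0.071 and Atp5j, subunit F6, of -0.0081. Of the 50-base words, 66.6% of Atp5h and 50.3% of Atp5o also occur in other annotated genes. For Atp5o these include a second annotated entry of the same symbol on the same strand, which holds 24.6% of its words. The opposite-strand gene D430001F17Rik overlaps Atp5o as well. The counts of these genes thus depend on how shared reads were treated. Atp5s, factor B, was at only 7.87 to 14.3 CPM in Axl KO and 12.5 to 15.6 CPM in WT mice, with a log2 fold change of -0.16 and a standard error of 0.14.

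The small membrane subunits, several of which hold the ATP synthase in dimers at the ridges of the cristae, included the gene of lowest p. Atp5mpl, a small proteolipid of the membrane part (chr12:111961375-111966977, minus strand), was at 182, 152, 142, 165 and 201 CPM in Axl KO and at 133, 144, 142, 145 and 131 CPM in WT mice. In 4 of 5 Axl KO mice it was above the highest WT value, and the log2 fold change was 0.28 (SE 0.086, unadjusted p = 0.00729, adjusted p = 0.571 by edgeR). It was the only one of the 37 genes with an unadjusted p under 0.05 in each of the 19 alternative fits, where its log2 fold change ran from 0.20 to 0.33.

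Atp5j2 (subunit f) was at 316, 311, 265, 325 and 333 CPM in Axl KO and at 273, 291, 288, 281 and 249 CPM in WT mice (log2 fold change 0.17, SE 0.072, unadjusted p = 0.0395, adjusted p = 0.579 by edgeR). Again 4 Axl KO mice were above every WT mouse and Axl KO replicate 3 was not. Atp5k (subunit e) had a log2 fold change of 0.084 and Atp5l (subunit g) of -0.048 (SE 0.13), the latter with 84.9% of its 50-base words shared with other annotated genes. Over the alternative fits, Atp5e, Sdhaf4 and Uqcc2 were at an unadjusted p under 0.05 in 14 of 19 each, Atp5j2 in 9, Atp5f1 in 8 and Uqcrb in 6, and the lowest adjusted p of any of the 37 genes in any fit was 0.128.

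**Figure D3:**
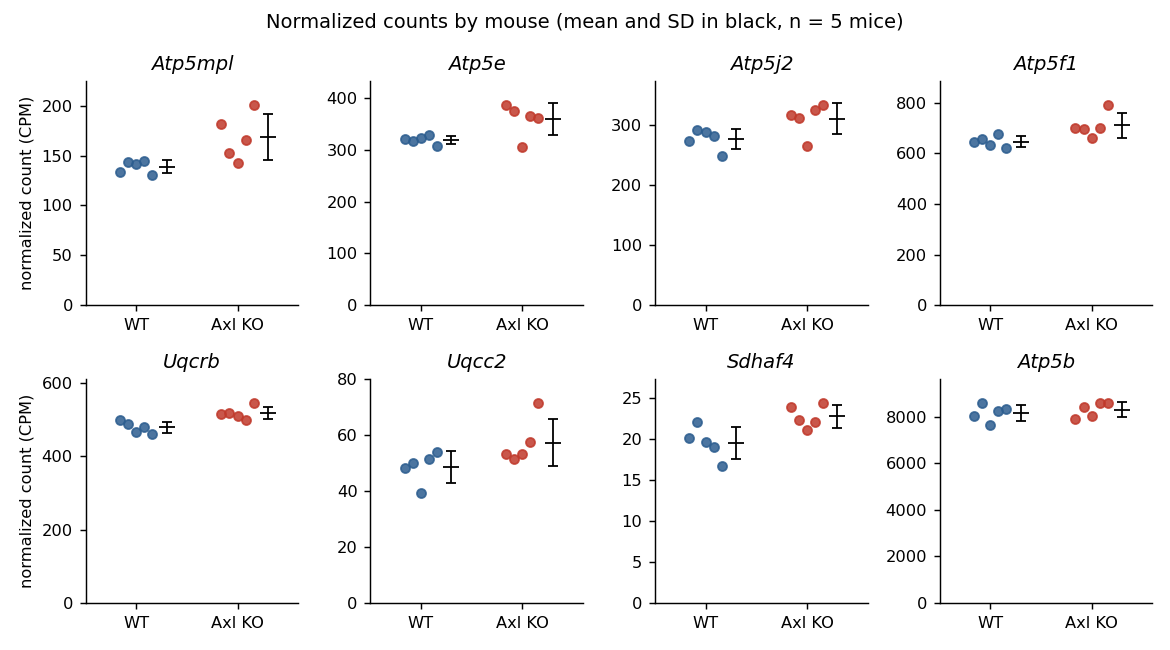
Normalized count in CPM (vertical axes, from 0) in each WT mouse (blue) and Axl KO mouse (red), with the mean and SD in black, for the 7 genes with an unadjusted p under 0.05 and for Atp5b. In Atp5mpl, Atp5e, Atp5j2, Atp5f1 and Sdhaf4, 4 of 5 Axl KO mice lie above every WT mouse; Uqcrb alone has no overlap, and Atp5b overlaps throughout.

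The ATP synthase c subunit, the protein of the proton-carrying ring, is encoded by 3 genes that differ in their import sequence and make the same mature protein. The ends of their coding sequences, from the mature protein's first codon to the stop codon, are shown because they are the part the 3 genes have most in common, where reads can be told apart only by the bases that differ. They are taken from the GENCODE M21 transcripts, 228 bases each, 5′ to 3′, with capitals at the positions where the 3 genes are not all alike.
Atp5g1: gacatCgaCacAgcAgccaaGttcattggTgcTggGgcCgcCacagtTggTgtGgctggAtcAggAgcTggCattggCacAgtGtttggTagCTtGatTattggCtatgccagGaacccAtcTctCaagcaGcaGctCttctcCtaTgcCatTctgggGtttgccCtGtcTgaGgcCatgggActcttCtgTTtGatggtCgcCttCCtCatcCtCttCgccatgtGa
Atp5g2: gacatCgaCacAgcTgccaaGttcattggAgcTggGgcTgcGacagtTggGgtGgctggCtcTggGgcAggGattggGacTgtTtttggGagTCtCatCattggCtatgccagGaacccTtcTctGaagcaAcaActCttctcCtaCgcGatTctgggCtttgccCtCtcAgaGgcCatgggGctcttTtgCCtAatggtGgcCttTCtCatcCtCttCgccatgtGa
Atp5g3: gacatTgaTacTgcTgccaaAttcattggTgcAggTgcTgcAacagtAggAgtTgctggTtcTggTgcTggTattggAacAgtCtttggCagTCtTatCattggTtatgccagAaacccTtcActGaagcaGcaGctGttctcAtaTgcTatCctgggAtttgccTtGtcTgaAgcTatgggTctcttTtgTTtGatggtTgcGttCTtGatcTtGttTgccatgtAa
The 3 sequences share 170 of 228 bases, and 52 of the 58 positions that differ are the last base of a codon. The longest stretch common to all 3 is 8 bases, and between Atp5g1 and Atp5g2, the closest pair at 85.1% identity, it is 21 bases. Reads from these genes are thus distinct from each other, but not from copies elsewhere in the genome: 66.0% of the 50-base words of the Atp5g1 mRNA and 100% of those of Atp5g2 occur in other annotated genes, against none of Atp5g3. The genes lie at chr11:96068852-96075670, chr15:102662864-102672352 and chr2:73908447-73911326 of GRCm38, all on the minus strand.

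Atp5g1 varied more between mice than any other of the 37 genes, with a coefficient of variation of 75.7% in Axl KO and 39.6% in WT mice. It was at 3.09, 3.46, 9.44, 5.82 and 17.5 CPM in Axl KO and at 17.5, 6.77, 16.2, 14.1 and 7.68 CPM in WT mice, from 20 to 140 reads per mouse. Its log2 fold change of -0.68 (SE 0.42, unadjusted p = 0.135, adjusted p = 0.666 by edgeR) was the largest in size of the 37. The groups overlapped, as Axl KO replicate 5 had the highest value of all 10 mice and WT replicates 2 and 5 lay below Axl KO replicate 3.

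Atp5g2 was at 42.0, 44.6, 41.2, 40.3 and 49.3 CPM in Axl KO and at 42.2, 43.4, 40.6, 44.4 and 35.2 CPM in WT mice (log2 fold change 0.078, SE 0.077). Atp5g3 was at 133, 122, 127, 134 and 142 CPM in Axl KO and at 132, 133, 133, 133 and 133 CPM in WT mice (log2 fold change -0.012, SE 0.052). These genes thus held steady levels in the mice where Atp5g1 ranged widely. Of the counts per kilobase of the 3 genes together, Atp5g1 made up 4.29% ± 2.84 in Axl KO and 6.89% ± 2.54 in WT mice (SD, n = 5 each), a difference of -2.61 percentage points (two-sided exact permutation p = 0.167). Atp5g2 made up 33.3% ± 1.81 against 31.1% ± 1.83 (exact permutation p = 0.0714) and Atp5g3 62.4% ± 2.70 against 62.0% ± 2.92 (exact permutation p = 0.857). The 3 genes together were at 6.33% to 7.59% of the level of Atp5b per kilobase in Axl KO and at 6.40% to 7.65% in WT mice, where the counts of Atp5g1 and Atp5g2 depend on how reads shared with copies were treated.

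Atp5g1 and skeletal muscle markers were high in the same mice. The 16 markers summed to 102, 93.8, 2112, 806 and 4239 CPM in the 5 Axl KO mice and to 3991, 1087, 4840, 3872 and 1028 CPM in the 5 WT mice. The 5 mice with the most Atp5g1 were the 5 with the highest muscle sums, and the 2 mice with the least Atp5g1, Axl KO replicates 1 and 2, had the lowest sums. Since these 2 mice stood apart from the rest, the relation was computed over the other 8, where Pearson's r between the log2 levels was 0.979 (exact permutation p = 0.00062, adjusted p = 0.0842 over 13719 genes) and Spearman's rho 0.905 (exact permutation p = 0.00456, adjusted p = 0.352). Of these 13719 genes, 0.437% had an r at least as high. Without the 2 mice farthest from the median muscle sum, r was 0.973 over 6 mice.

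For the other 36 genes r lay between -0.594 and 0.536. All 16 muscle markers had a negative log2 fold change, with a median of -1.03, and none had an unadjusted p under 0.05. With the mean log2 level of the muscle markers as a covariate, the log2 fold change of Atp5g1 was 0.020 in place of -0.68, and without Axl KO replicates 1 and 2, an alternative chosen after the values were seen, it was -0.21. Whether the Atp5g1 reads came from muscle was not tested. The number of the 37 genes at an unadjusted p under 0.05 was 3 with the covariate and 2 without these mice. The share of all tested genes at that level in these fits is not given here, so the counts cannot be set beside it.

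**Figure D4:**
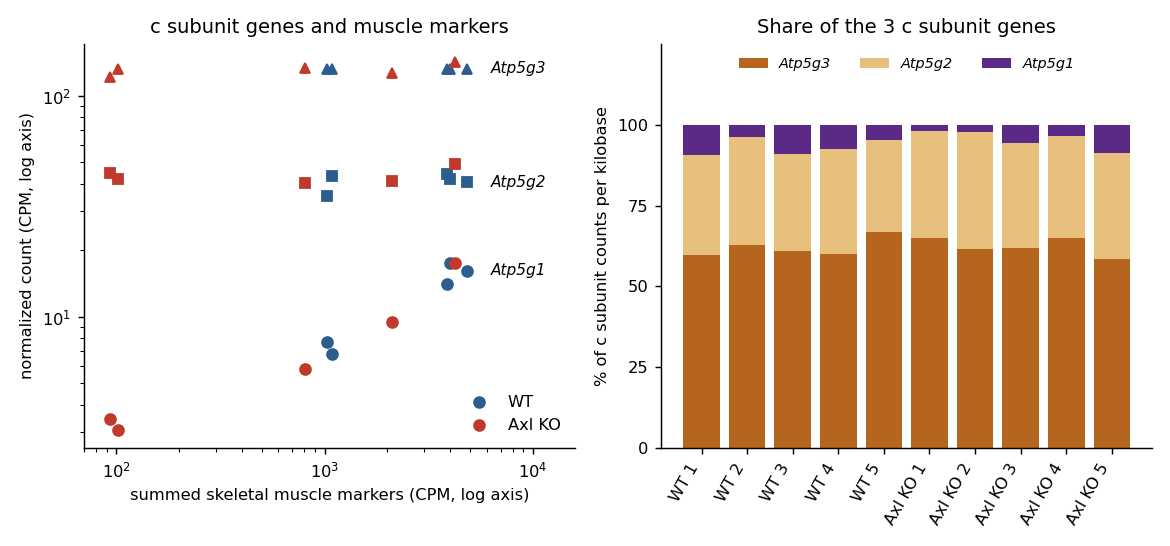
Left, normalized counts of the 3 c subunit genes (vertical log axis, CPM) against the summed skeletal muscle markers (horizontal log axis, CPM) in each WT (blue) and Axl KO (red) mouse; Atp5g1 climbs from 3.09 to 17.5 CPM while Atp5g2 and Atp5g3 stay level. Right, share of each gene in the counts per kilobase of the 3 in each mouse, where Atp5g1 (purple) takes 1.81% to 9.47%.

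Mitochondrial DNA encodes 3 further subunits of these complexes. mt-Cytb, the cytochrome b of complex III, was at 11313, 10845, 9378, 13185 and 13138 CPM in Axl KO and at 10357, 11368, 13182, 11841 and 11180 CPM in WT mice, with a log2 fold change of -0.0017 (SE 0.099). mt-Atp6, the proton channel subunit beside the c ring, was at 21.6, 13.5, 9.68, 76.1 and 37.6 CPM in Axl KO and at 7.24, 68.6, 39.0, 6.02 and 29.9 CPM in WT mice. mt-Atp8 was at 2.78, 6.31, 0.933, 4.95 and 35.4 CPM in Axl KO and at 0, 5.71, 9.13, 8.60 and 9.94 CPM in WT mice, where the 0 counts of WT replicate 1 allow up to 0.41 CPM (3 counts, counting error only). Only mt-Cytb was even enough between mice to be compared closely, and its groups overlapped. Of the 50-base words of mt-Atp6, 99.5% also occur in the nuclear gene Gm10925.

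Per kilobase of mRNA, the levels of the 37 genes spanned a wide range. Atp5b was highest, with a mean over the 10 mice of 4299 CPM per kilobase, followed by Atp5a1 (1800), Uqcrh (1128), Uqcr11 (1114) and Sdha (1083), of which the last 3 overlapped in their ranges over mice. Most other subunits lay between 307 CPM per kilobase for Atp5j2 and 944 for Uqcrc1. Far lower were Atp5j at 189, Sdhc at 162, Cycs at 138, Uqcc2 at 106, Uqcc1 at 85.9 and Atp5l at 37.8. The c subunit genes were at 185 for Atp5g3, 95.9 for Atp5g2 and 17.0 for Atp5g1. The assembly factors of complex II ran from 3.94 for Sdhaf3 to 31.0 for Sdhaf4, and Atp5s was at 8.63. These levels rest on 1 principal transcript per gene, and for genes with shared words they depend on how shared reads were counted, which is not known here.

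The genes of low p had mostly short mRNAs. Of the 19 genes whose mRNA is under 1000 bases, 6 (31.6%) were higher at an unadjusted p under 0.05 and their median log2 fold change was 0.092; of the 18 longer ones, 1 was at that level (Atp5f1) and the median was 0.028. The same direction held over all tested genes with a length: 9.21% of 890 genes under 1000 bases were higher at that level, with a median log2 fold change of 0.062, against 4.36% of 11189 longer genes, with a median of -0.0046. Spearman's rho between length and log2 fold change across genes, which are not independent replicates, was -0.44 for the 37 genes and -0.16 for 12079 tested genes. The genes under 1000 bases held 19.0%, 18.4%, 17.6%, 18.0% and 18.5% of the counts of all 37 genes in the 5 Axl KO mice and 18.0%, 17.1%, 18.0%, 17.6% and 16.8% in the 5 WT mice. The groups overlapped, with the 3 highest shares in Axl KO mice, and the part of RNA quality or library preparation in this was not tested.

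**Figure D5:**
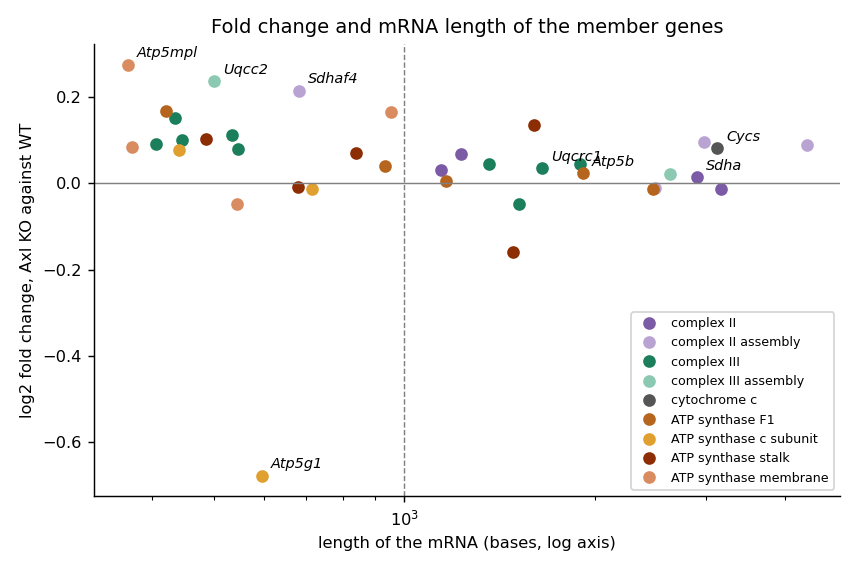
Log2 fold change of Axl KO against WT (vertical axis) against the length of the mRNA in bases (horizontal log axis) for the 37 genes, coloured by complex, with a dashed line at 1000 bases. Points on the left lie mostly above 0, up to 0.28 for Atp5mpl, while Atp5g1 is lowest at -0.68 and Atp5l, Atp5g3 and Atp5j lie slightly below 0. Points on the right lie closer to 0.

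Many of the 37 genes were low or high in the same mice. Among the 5 Axl KO mice, replicate 3 had the lowest value for 27 of the 37 genes and replicate 5 the highest for 21. Among the WT mice, replicate 5 had the lowest value for 18 genes and replicate 2 the highest for 18. Leaving out Axl KO replicate 3 raised the number of genes at an unadjusted p under 0.05 from 7 to 11 (adding Uqcr10, Uqcr11, Uqcrq and Atp5h), and leaving out WT replicate 5 lowered it to 2, Atp5mpl and Uqcc2. For these fits too, the share of all tested genes at that level is not given here. The median log2 fold change was 0.097 without Axl KO replicate 3 and 0.030 without Axl KO replicate 5. Of the 27 genes with at most 20% of shared words, 5 had an unadjusted p under 0.05 in the reported fit, all higher, and 21 a positive fold change. Over all tested genes in that fit, 4.54% were higher at that level and 49.8% had a positive fold change.

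Fixed lists of other genes of the respiratory chain were set beside these. Over all tested genes, 8.4% had an unadjusted p under 0.05 and 49.8% a positive fold change. Of 36 nuclear genes of complex I, 33 had a positive fold change and 7 an unadjusted p under 0.05, with a median log2 fold change of 0.093. Lowest in p were Ndufb4 (log2 fold change 0.21, SE 0.061, adjusted p = 0.571) and Ndufa3 (0.24, SE 0.071, adjusted p = 0.571 by edgeR). Of 16 nuclear genes of complex IV, 13 had a positive fold change and 3 an unadjusted p under 0.05, with a median of 0.077. Lowest in p were Cox8b, a subunit enriched in brown fat and muscle (0.24, SE 0.063), and Cox7a2 (0.18, SE 0.064), and no gene of either list passed the adjusted threshold. The widest difference in the complex IV list, named after its values were seen, was that of Cox6a2, the heart and muscle form of a subunit, at 0.463, 0, 7.69, 2.77 and 19.95 CPM in Axl KO and at 18.7, 4.66, 17.8, 18.6 and 4.03 CPM in WT mice, with an adjusted p of 0.707 by edgeR. Its log2 fold change was -1.08, and with the muscle covariate it was -0.045.

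The next lists stand against the same shares of all tested genes, 8.4% at an unadjusted p under 0.05 and 49.8% positive. Among 13 genes of coenzyme Q synthesis, which make the ubiquinone that complexes II and III share, 10 had a positive fold change and 2 an unadjusted p under 0.05: Coq3, a methyltransferase of the ring (0.23, SE 0.072), and Pdss1, which helps build the side chain (0.29, SE 0.11). Of 8 genes that feed electrons to ubiquinone outside complexes I and II, 4 had a positive fold change and none an unadjusted p under 0.05, with Etfdh, which takes electrons from fatty acid oxidation, at 0.39 (SE 0.18) and Prodh, proline dehydrogenase, at 0.51 (SE 0.36). Of 9 further assembly factors of complexes II, III and V, 7 were positive and none had an unadjusted p under 0.05, with Tmem70, an assembly factor of the ATP synthase, at 0.16 (SE 0.074) and Uqcc3, one of complex III, at 0.14 (SE 0.074). Of 15 nuclear regulators of respiratory genes, 11 were positive and none was at that level, with Tfb1m at 0.27 (SE 0.13) and Gabpb1 at -0.23 (SE 0.13). Of 3 adenine nucleotide and phosphate carriers above the filter, Slc25a4, the carrier of heart and muscle, was lower at an unadjusted p of 0.0472 (-0.17, SE 0.079), which was 0.393 with the muscle covariate (-0.070), and Slc25a5 was at 0.073 (SE 0.060).

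Markers of cell types were set beside these values. The shares over all tested genes were 8.4% at an unadjusted p under 0.05 and 49.8% with a positive fold change. Of 10 brown adipocyte markers, 8 had a positive fold change and 5 an unadjusted p under 0.05, with a median log2 fold change of 0.093; Dio2, which activates thyroid hormone, was at 0.89 (SE 0.21) without overlap between the groups, with an adjusted p of 0.571 by edgeR and 0.0285 by DESeq2, so that it was among the 9 genes DESeq2 called. Cox8b, listed above, is also among the markers, and the widest difference, named after its values were seen, was that of Elovl3, a fatty acid elongase, at 1.67 (SE 0.49, adjusted p = 0.571 by edgeR). Dio2, Cox8b and Elovl3 all lie above the median of the list, and 2 of the markers had a negative fold change, the lowest at -0.086. All 7 fibroblast markers had a negative fold change, with a median of -0.27, and 2 had an unadjusted p under 0.05, Col1a2 (-0.40) and Col1a1 (-0.43). Summed fibroblast markers were at 438 to 720 CPM in Axl KO and at 632 to 846 CPM in WT mice, so the groups overlapped. Of the 10 macrophage, 7 endothelial, 5 erythroid and 4 tested white adipocyte markers none had an unadjusted p under 0.05. The 9 B and T cell markers were all below the filter, at 1.20 to 2.45 CPM in sum in Axl KO and 1.38 to 3.00 CPM in WT mice. The part of brown adipocyte or fibroblast content in the values of the 37 genes was not tested.

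Promoter letters were compared as a description, using RefSeq windows of 250 bases before to 50 bases after the start in GRCm38.p6. Windows were matched for 30 of the 37 genes, and not for Atp5a1, Atp5mpl, Cyc1, Sdhc, Uqcrb, Uqcrc2 and Uqcrq. The background of 27025 promoters was not limited to genes above 1 CPM in iBAT, as the 37 genes were, so the sets are unlike. The letters TGCGCA, the core of the sites of NRF1, stood in 9 of 30 (30%), among them Sdha, Sdhd, Uqcrc1 and Atp5g2, against 8.06% of 27025 promoters. CCGGAAG, bound by ETS factors such as GABP, stood in 11 (36.7%), among them Sdhb, Uqcrh and Atp5e, against 9.12%. AAGGTCA, the half-site of estrogen-related receptors, stood in 5 (16.7%), among them Atp5g3 and Atp5e, against 4.66%, and ATGGCGG, the core of the sites of YY1, in 2 (6.67%) against 4.19%. Both strands were searched, no motif contains another, and no letters of the 4 motifs were found in the window of Atp5g1.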

How the data were processed

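The authors sequenced RNA of whole iBAT and deposited, for each mouse separately, a table of raw counts by Ensembl gene that were neither normalized nor pooled. Their paper names Trim Galore and hisat2 on GRCm38, whereas the submitters' processing notes name Trimmomatic 0.36, STAR 2.6.1c, DESeq2 and GRCm38.p5. The paper also gives a slightly longer diet begun later and rRNA-depleted RNA, where the sample records name polyadenylated RNA. The counting tool, its strand setting and its treatment of reads matching several genes are not given in the sources used here, so counts of genes with copies or antisense partners are uncertain. The labels name no sequencing batch.

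Of 41249 identifiers, 41163 were in GENCODE M21 and 86 were not. The quasi-likelihood test of edgeR 4.0.16 in R 4.3.3, after TMM scaling and without covariates, compared the 13739 genes that averaged more than 1 CPM. An adjusted p under 0.05 (Benjamini-Hochberg over these genes) was a call, and an unadjusted p under 0.05 was counted as a description. Values of single mice are TMM-normalized CPM, and lengths are those of 1 principal mRNA per gene. Shares and correlations were tested with two-sided exact permutation tests. The biological coefficient of variation was 14.8%, and depth limits genes such as Atp5g1 with few reads. The procedure was tested on simulated data. Replicate numbers were not read as pairs, since no pairing is given in the sources used here. Alternatives were DESeq2 1.42.0, RLE size factors, a robust fit, filterByExpr, every gene with a count, protein-coding genes alone, a replicate block, a muscle covariate and each mouse left out. The genes named with all values are Axl, the core subunits, the 10 of lowest p and the mitochondrially encoded partners, and of other lists the 2 genes of lowest p. The genes, lists and tests were chosen with earlier results of these data known.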

Additional observations from a re-analysis of the deposited data

Results flagged for a closer look

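In 4 of 74 groups of 5 mice, the lowest or highest value was separated from the nearest other mouse by a gap above 0.71 of the range, where chance alone would give about 3.7 such groups. Uqcr10 in Axl KO replicate 3 was at 330 CPM, with the nearest Axl KO mouse at 399 CPM. Atp5d, the delta subunit of the ATP synthase, was at 397 CPM in the same mouse, with the nearest at 487 CPM. Cyc1 in WT replicate 2 was at 879 CPM, with the nearest WT mouse at 823 CPM. Atp5g3 in WT replicate 1 was at 131.7 CPM and the nearest WT mouse at 132.6 CPM, a small gap in a very narrow group.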

How the results depend on the processing

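None of the 37 genes was called in any fit. DESeq2 called 9 genes in all in place of 1. The number of the 37 genes at an unadjusted p under 0.05, 7 as reported, was 4 with the replicate block, 3 with the skeletal muscle covariate, 2 without both mice of lowest skeletal muscle level (chosen after seeing the data), and 2 (without WT replicate 5) to 11 (without Axl KO replicate 3) when 1 mouse was left out. Without Axl KO replicate 5 it was 3, of which Atp5g1, at a log2 fold change of -1.14, was lower. For these alternatives, unlike the reported fit, the share of all tested genes at that level is not given here. The median log2 fold change stayed positive. Same-numbered mice deviated with correlations of -0.356 to 0.373, and the numbers were not read as pairs. These correlations cannot exclude a pairing. With the muscle covariate the log2 fold change turned to 0.020 for Atp5g1, 0.023 for Atp5g3, 0.017 for Atp5j, 0.056 for Sdhaf1, -0.034 for Sdhaf3 and 0.046 for mt-Cytb, and without both mice to 0.018 for Atp5g3, 0.014 for Atp5j, 0.054 for Sdhaf1, -0.040 for Sdhaf3 and 0.039 for mt-Cytb. Leaving out 1 mouse gave both signs for Sdha (-0.011 to 0.035), Sdhc (-0.030 to 0.014), Atp5a1 (-0.028 to 0.013), Atp5c1 (-0.014 to 0.034), Atp5j (-0.036 to 0.013), Atp5l (-0.14 to 0.022), Sdhaf1 (-0.070 to 0.033), Atp5g3 (-0.041 to 0.014), mt-Cytb (-0.053 to 0.065), mt-Atp6 (-0.62 to 0.58) and mt-Atp8 (-0.87 to 0.84). The cause of these shifts was not tested.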
